A study of Homo sapiens with 14 samples.

Results

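The comparison described here set human fibroblasts exposed for 72 h to ddC against untreated fibroblasts. Its libraries were chosen by their titles, which name day 3 or untreated cells, and they number 5 of the 14 in the series, 3 treated and 2 untreated. The cells were IMR90, a fibroblast line established from human fetal lung, and both groups were labelled WT and grown in EMEM with fetal bovine serum. The treated cells received 20 uM 2'3'-dideoxycytidine (ddC), and the untreated cells received water as vehicle. The design text puts the untreated cells at 0 h, whereas their own labels put them at 4 days, so it is uncertain whether they spent as long in culture as the treated cells. The remaining libraries were cells treated in the same way for 24, 48 or 96 h, with 3 libraries each. All libraries came from 1 cell line, so the spread between replicates holds no difference between donors, and the design text calls the replicates biological without saying how they were separated. Polyadenylated RNA was sequenced after a strand-preserving library preparation, and the 5 libraries held between 11310760 and 12086869 counts each.

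ddC is a cytidine analog without the hydroxyl group that the next nucleotide needs. Its triphosphate is used by DNA polymerase gamma, the polymerase of mitochondria, and ends the growing strand, so that copies of mitochondrial DNA (mtDNA) are lost. Mitochondrial stress is known to reach nuclear genes through ATF4, a transcription factor of the integrated stress response that raises amino acid synthesis and transport. p53 is the stress-responsive transcription factor that activates genes of cell cycle arrest, repair and death. Fibroblasts can also turn on the actin and myosin genes of smooth muscle, as myofibroblasts do in wound repair, under the control of serum response factor (SRF) and its cofactors. The table held 0 genes of the mitochondrial chromosome, so RNA made from mtDNA was not analysed here, and neither was mtDNA copy number.

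The libraries carried the markers of fibroblasts. The 10 fibroblast markers summed to 35493 and 36206 CPM (counts per 1000000 counts of a library, scaled by TMM factors) in the untreated libraries and to 36839, 38564 and 40123 CPM at 72 h. COL1A1 was the largest part of the sum, at 16374 and 17420 CPM against 17720, 18879 and 19424 CPM. Of the 10 markers, 7 had fitted changes above 0 and 3 below, with 0 called. VIM overlapped between groups, and PDGFRA was lower without overlap, at 244.4 and 244.1 against 195.6, 219.6 and 187.2 CPM. Of the 10 epithelial markers, 6 were at 0 in all 5 libraries, among them CDH1 and SFTPC, as were PECAM1, CDH5 and ERG of the 8 endothelial markers and CD3E and HBA1 of the 9 blood cell markers. The libraries fell into 2 sets by an index of opposite-strand reads, which counts reads of antisense neighbours per 1000 reads of their abundant partners over 126 such pairs. It was 0.615 to 0.640 in the untreated libraries and 0.837 to 0.945 at 72 h, so for these groups the library set and ddC cannot be told apart. Only the 48 h group held libraries of both sets, of which replicate 3 alone was in the set of the 72 h libraries. Nuclear RNA also varied: MALAT1, a long noncoding RNA kept in the nucleus, stood at 95.1 and 271 CPM in the untreated libraries and at 391, 409 and 81.5 CPM at 72 h, so its levels overlapped between the groups.

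After 72 h of ddC, 24 genes differed from untreated cells, 19 of them higher and 5 lower. These calls are 0.179% of the 13371 genes tested (0.142% higher and 0.0374% lower), at an adjusted p under 0.05 in edgeR's quasi-likelihood test. An unadjusted p under 0.05 was found for 968 genes, 532 higher and 436 lower. The unadjusted counts given below for lists are to be read against these. CBS and CBSL lie on the same span of chromosome 21 and their counts cannot be separated, so the 24 genes are 23 loci. The genes that rose fall into a contractile group led by ACTA2, p53 targets led by CDKN1A, matrix and secreted genes, and metabolic and signalling genes. Those that fell were FAM111B, SSX2IP, HGF, H1F0 and DPYSL3. Changes were small, from 1.22-fold to 1.67-fold, and their median absolute log2 fold change was 0.45. Over all genes tested the median signed log2 fold change was 0.0044. In all 24 genes the treated and untreated libraries did not overlap. Over all genes tested, 12.0% were higher and 12.2% lower without overlap. The last gene called, MYL9, had an adjusted p of 0.0499, and the next genes, PCDH18, CORIN, BBC3 and MEST, had 0.0511. These are whole-culture values, in which a change in the share of some cells and a change in RNA per cell cannot be told apart.

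**Figure D1:**
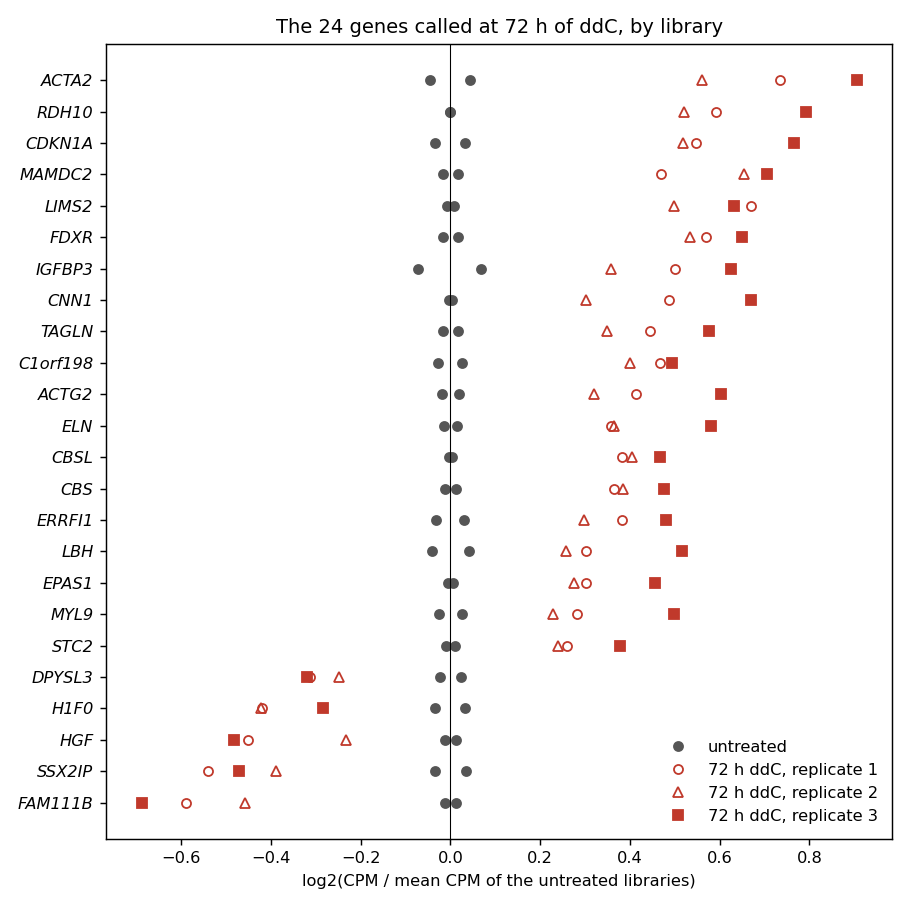
Expression of the 24 called genes in each library, as log2 of the CPM over the mean CPM of the untreated libraries (horizontal axis), with 1 row per gene ordered by the fitted change. Filled grey points are the untreated libraries and red symbols the 72 h replicates. The red and grey points of each row are apart, and replicate 3 (filled square) stood highest in 18 of the 19 genes that rose.

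In the plot of the called genes by library, 72 h replicate 3 was the highest treated library for 18 of the 19 genes that rose and the lowest for 3 of the 5 that fell. Over all genes tested it was the highest of the 3 for 42.7% and the lowest for 37.9%. It was also the treated library with the least MALAT1. With a score of 4 nuclear noncoding RNAs as a covariate, all 24 genes stayed called, among 243 in all. Leaving out untreated replicate 2 gave 1 call and leaving out untreated replicate 1 gave 2. Leaving out 72 h replicate 1 gave 4 calls, leaving out 72 h replicate 3 gave 6, and fitting only the compared groups gave 7. A fit with a term for the library set called 0 genes, with 928 at an unadjusted p under 0.05, and there the 24 kept their sign with a median size of 0.54. The value of 48 h replicate 3, the only 48 h library in the set of the 72 h libraries, lay on the untreated side of all 72 h libraries for 22 of the 24 genes. That held for 34.1% of all genes and for 59.1% of the 3242 whose 72 h and untreated libraries did not overlap. It was the 48 h library farthest from the 72 h values for 17 of them, a place it took for 37.2% of all genes. This placing was examined after the values had been seen and rests on 1 library. The 24 genes were called for the gap between their 72 h and untreated libraries. The shares over other genes were not matched to them for size of change. The cause of the placing was not tested.

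Genes of the actin cytoskeleton and smooth muscle contraction made up the largest group of called genes. Of 29 listed actin isoforms and contractile genes, 28 were tested and 6 rose: ACTA2, TAGLN, ACTG2, LIMS2, CNN1 and MYL9. None fell. DESeq2 called 8, adding TPM1 and LMOD1, and limma-voom called 6, with TPM1 but not MYL9. Of the 28, 27 had fitted changes above 0 (median 0.17 on the log2 scale), whereas 51.3% of all genes tested lay above 0. In 20 of the 28 the 72 h libraries stood above both untreated libraries without overlap, which held for 12.0% of all genes. This list, like the others below, was drawn up with earlier results of these data known. Its counts are therefore a description and no separate support.

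ACTA2, the smooth muscle alpha actin that marks myofibroblasts (chr10:90694831-90751154, minus strand, hg19), had the largest change of the called genes. Its values were 488 and 458 CPM in the untreated libraries and 787, 698 and 886 CPM at 72 h. The groups were wide apart, and the lowest treated library stood well above the higher untreated one. The difference was 1.67-fold, or 0.74 ± 0.08 (log2 fold change ± SE, n = 3 and 2; edgeR adjusted p = 0.000108), and ACTA2 was the only gene called whichever single library was left out (adjusted p at most 0.0314). FAS, a p53 target on the opposite strand of the same locus, had 8.77% of the counts of ACTA2 and was not called (log2 fold change 0.33 ± 0.09, adjusted p = 0.218). ACTG2, the smooth muscle gamma actin (chr2:74120093-74146780, plus strand, hg19), stood at 395 and 384 CPM in untreated cells and at 519, 486 and 591 CPM at 72 h, a log2 fold change of 0.45 ± 0.07 (adjusted p = 0.00602). The actin genes are near copies of each other in their coding sequence, and how reads matching more than 1 of them were counted is not given in the sources used here, so the division of reads between ACTA2 and ACTG2 is uncertain. ACTC1, the cardiac alpha actin, stood at 0.27 ± 0.08 (adjusted p = 0.289).

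The 250 bases before the annotated starts of ACTA2 and ACTG2 are shown because SRF binds the CArG box, a run of CC, 6 bases of A or T and GG, and these are the smooth muscle actins of the contractile group. The sequences are from RefSeq on GRCh38.p14, read 5′ to 3′ on the strand of the gene. Capitals mark CArG boxes in ACTG2 and, in ACTA2, elements with 1 central base of G or C, here called CArG-like.
ACTA2, second start, chr10:88952774-88953023, minus strand: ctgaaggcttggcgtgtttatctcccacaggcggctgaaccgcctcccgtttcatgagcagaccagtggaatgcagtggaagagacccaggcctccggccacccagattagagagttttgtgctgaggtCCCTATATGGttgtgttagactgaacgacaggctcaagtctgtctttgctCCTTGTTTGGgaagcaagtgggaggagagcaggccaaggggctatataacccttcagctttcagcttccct
ACTG2, chr2:73892758-73893007, plus strand: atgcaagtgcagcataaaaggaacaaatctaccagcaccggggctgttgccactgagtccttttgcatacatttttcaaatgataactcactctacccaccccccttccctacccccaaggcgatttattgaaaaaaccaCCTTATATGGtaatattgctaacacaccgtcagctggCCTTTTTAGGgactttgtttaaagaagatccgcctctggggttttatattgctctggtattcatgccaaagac
The elements of ACTG2 begin 110 and 73 bases before the start, and those of ACTA2 begin 121 and 71 bases before it. The window of the first ACTA2 start had neither element. On either strand, a CArG box was found in 1.16% and a CArG-like element in 5.96% of 35116 windows of the same length. Of the 24 called genes, 17 had an entry in the promoter table. ACTG2 alone among them had a CArG box, and ACTA2 and DPYSL3, which fell, had a CArG-like element. CNN1 had neither in this window, and TAGLN and MYL9 had no entry. Some of the 17 genes had several windows, such as LIMS2 with 4. These counts per gene therefore do not compare directly with the shares per window. A match is a match of letters only, and no binding was measured.

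TAGLN, or transgelin, an actin cross-linking protein of smooth muscle (chr11:117070040-117075508, plus strand, hg19), stood at 1383 and 1352 CPM in the untreated libraries and at 1861, 1742 and 2040 CPM at 72 h. It was the most abundant of the 6 per length of transcript, rising from 1186 to 1631 CPM per kb. The change was 0.46 ± 0.07 (adjusted p = 0.00602). CNN1, calponin, which binds actin and inhibits myosin ATPase, had 108 and 107 CPM in untreated and 151, 133 and 171 CPM in treated cells, a log2 fold change of 0.49 ± 0.09 (adjusted p = 0.0166). Its treated libraries were spread more widely than its untreated ones but stayed above them. MYL9, the regulatory light chain of smooth muscle myosin, stood at 812 and 783 CPM in untreated cells and at 969.6, 934 and 1126 CPM at 72 h. Its change of 0.34 ± 0.07 was the weakest call (adjusted p = 0.0499). LIMS2, an adaptor that links integrins to actin, was the least abundant of the 6, with 25.1 and 24.9 CPM against 39.8, 35.3 and 38.8 CPM (log2 fold change 0.60 ± 0.10, adjusted p = 0.0166). Per length, ACTA2 went from 269.6 to 451 CPM per kb and ACTG2 from 295 to 403, so the mean level of ACTA2 was below that of ACTG2 in untreated cells and above it at 72 h.

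Other members of the contractile list missed the edgeR threshold. TPM1, an actin-binding tropomyosin, stood at 0.24 ± 0.05 (adjusted p = 0.0582), with 1359 and 1312 CPM in untreated and 1560, 1549 and 1634 CPM in treated libraries. LMOD1, leiomodin, which nucleates actin filaments, stood at 0.31 ± 0.07 (adjusted p = 0.101). The regulators of the group were not called: SRF itself stood at 0.10 ± 0.07, and MYOCD, the smooth muscle cofactor of SRF, at -0.11 ± 0.08 with overlapping groups. The focal adhesion gene VCL stood at 0.01 ± 0.06 and the actin cross-linker FLNA at 0.04 ± 0.17. MYH11, the myosin heavy chain that defines mature smooth muscle, remained at 2.08 CPM or less in all 5 libraries, and DES at 1.40 CPM or less. The 8 smooth muscle markers, 2 of which are called genes, summed to 889 and 885 CPM in untreated libraries and to 1093, 1045 and 1169 CPM at 72 h. The 2 called genes are ACTG2 and CNN1, so the sum includes their rises and is no separate support. Among the other markers, SMTN stood at 139 and 158 CPM in untreated and 171, 159 and 159 CPM in treated libraries. LMOD1 stood at 101 and 92.1 against 118, 118 and 122 CPM, and MYOCD overlapped. The part of these markers in the result was not tested.

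**Figure D2:**
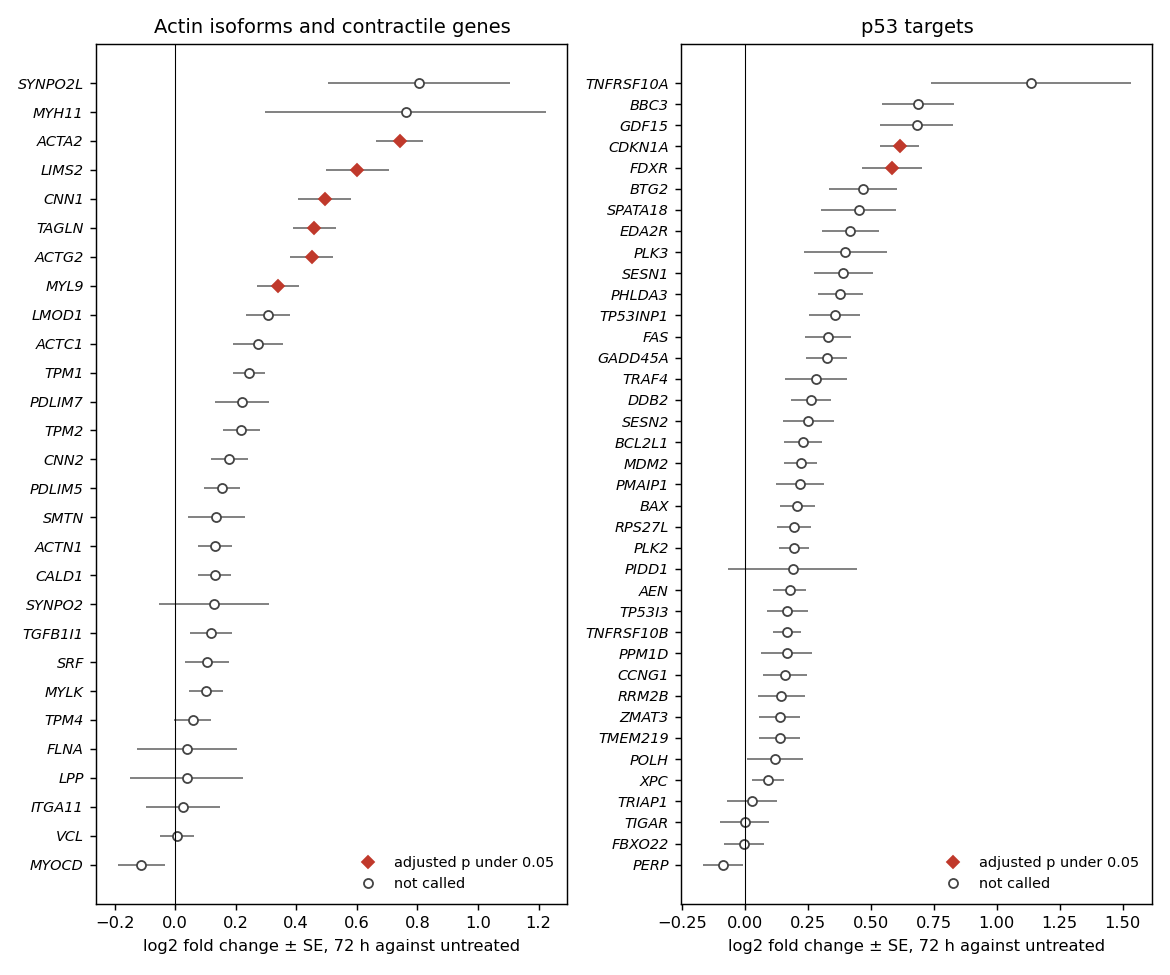
Fitted log2 fold change at 72 h against untreated cells (horizontal axis, points, with bars of 1 SE) for the tested members of the contractile list (left) and of the 3 lists of p53 targets (right). Red diamonds are called genes. In the contractile list 27 of 28 members lie to the right of 0 and 6 are called, and among the p53 targets CDKN1A and FDXR are called.

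Among targets of p53, CDKN1A and FDXR rose. They were 2 of 38 tested targets in 3 lists, none of which fell, and 35 lay above 0. In the list of arrest and feedback genes, all 15 members were above 0 (median log2 fold change 0.33), and 11 had groups that did not overlap, against 12.0% of all genes. In the list of death receptor and BH3 genes 11 of 12 lay above 0 (median 0.21, with 0 called and 9 higher at an unadjusted p under 0.05), and in the list of repair and metabolism genes 9 of 11 (median 0.14, 1 called).

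CDKN1A encodes p21, the inhibitor of cyclin-dependent kinases through which p53 stops the cell cycle (chr6:36646487-36655116, plus strand, hg19). It stood at 450.0 and 429.5 CPM in the untreated libraries and at 642, 630.2 and 747 CPM at 72 h. All treated libraries were far above both untreated ones, and replicate 3 was the highest. The change was 1.53-fold, or 0.61 ± 0.08 on the log2 scale (adjusted p = 0.000990), and it lost its call only without untreated replicate 2 (adjusted p = 0.0899) and when the library set entered the fit. FDXR, the mitochondrial ferredoxin reductase that feeds electrons to steroid and iron-sulfur cluster synthesis and is a p53 target (chr17:72858619-72869156, minus strand, hg19), had 15.1 and 15.4 CPM in untreated and 22.6, 22.1 and 23.9 CPM in treated libraries. The change was 0.58 ± 0.12 (adjusted p = 0.0450), and its call held in 5 of the 14 fits that left out 1 library and was lost in limma-voom. The window before the first start of FDXR is shown because it holds a match to the p53 half-site (capitals), at 11 bases before the start.
FDXR, first start, GRCh38.p14 chr17:74872995-74873244, minus strand: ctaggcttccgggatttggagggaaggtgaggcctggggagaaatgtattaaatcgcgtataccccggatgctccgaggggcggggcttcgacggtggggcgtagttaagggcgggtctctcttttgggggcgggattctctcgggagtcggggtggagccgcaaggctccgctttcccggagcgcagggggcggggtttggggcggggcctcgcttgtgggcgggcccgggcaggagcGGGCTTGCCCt
A half-site match was found in 5.57% of the 35116 windows. Of the 17 called genes with an entry, the other match was in the window of the first start of ACTA2. CDKN1A had none in its window. The share counts windows and some genes had several, so the matches per gene do not compare directly with it.

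Other p53 targets were not called by edgeR, some with larger fitted changes, and DESeq2 called 1 of them, PHLDA3. For GDF15, BBC3, EDA2R and the called gene FDXR, DESeq2 gave no adjusted p, so it did not judge them. GDF15, a secreted stress cytokine shared with the ATF4 response, stood at 16.5 and 15.3 CPM in untreated and 24.3, 25.9 and 26.4 CPM in treated libraries, a log2 fold change of 0.68 ± 0.15 (adjusted p = 0.0654). BBC3, which encodes the proapoptotic BH3 protein PUMA, had 5.81 and 6.97 CPM against 10.1, 9.47 and 11.3 CPM (0.69 ± 0.14, adjusted p = 0.0511). The libraries of both genes did not overlap between groups. Smaller changes were seen in MDM2, the ubiquitin ligase that restrains p53 (0.22 ± 0.07, adjusted p = 0.281), PHLDA3, an inhibitor of AKT (0.38 ± 0.09, adjusted p = 0.101 in edgeR and 0.0228 in DESeq2), and DDB2, a DNA damage recognition factor (0.26 ± 0.08, adjusted p = 0.277). PERP, a desmosomal p53 target, lay below 0 at -0.09 ± 0.08.

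Genes of the ATF4 response contributed 2 called loci. Of 13 tested ATF4-linked transcription factors and brakes, 1 rose and none fell, and 11 lay above 0 (median log2 fold change 0.25). Of 19 ATF4-linked genes of amino acid transport and synthesis, 1 rose, and 16 lay above 0 (median 0.16). Of 12 ATF4-linked tRNA synthetases none was called by edgeR, 2 were higher at an unadjusted p under 0.05, and 9 lay above 0 (median 0.06). STC2, stanniocalcin 2, a secreted glycoprotein induced by ATF4 in stress (chr5:172741726-172756506, minus strand, hg19), stood at 663 and 672 CPM in untreated libraries and at 799, 788 and 867 CPM at 72 h. The groups were narrow and apart, and the change was 0.29 ± 0.05 (adjusted p = 0.0226). CBS, cystathionine beta-synthase of the transsulfuration pathway (chr21:44473301-44496040, minus strand, hg19), had 71.0 and 72.2 CPM against 92.2, 93.6 and 99.5 CPM (log2 fold change 0.41 ± 0.07, adjusted p = 0.0184). The counts of its copy CBSL were 92.3% of those of CBS and gave nearly the same change, 0.42 ± 0.07, so both are uncertain as separate genes.

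The best known members of the ATF4 response were not called by edgeR, whereas DESeq2 called CHAC1 and DDIT4 besides STC2. For ATF3 and DDIT3, DESeq2 gave no adjusted p. ATF4 itself had 239 and 254 CPM in untreated and 282, 273 and 291 CPM in treated libraries, without overlap (0.19 ± 0.06, adjusted p = 0.246). CHAC1, a glutathione-degrading enzyme, came nearest the edgeR threshold at 0.38 ± 0.08 (adjusted p = 0.0554, and 0.00914 in DESeq2), followed by ATF3, a stress-induced transcription factor at 4.16 and 4.94 against 7.49, 7.68 and 8.15 CPM (0.77 ± 0.17, adjusted p = 0.0597). Beyond these, DDIT3, which encodes CHOP, stood at 0.33 ± 0.14, the asparagine synthetase ASNS at 0.17 ± 0.07 and the serine synthesis enzymes PHGDH and PSAT1 at 0.18 ± 0.06 and 0.16 ± 0.07. The adjusted p of these 4 genes lay between 0.332 and 0.618. ER stress genes, which share regulators with this response, had 0 calls among 17 tested (1 lower at an unadjusted p under 0.05) and a median of 0.02, whose sign was kept in 18 of 22 alternative fits.

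Among extracellular matrix and secreted genes, ELN, MAMDC2 and IGFBP3 rose. ELN encodes tropoelastin, the core of elastic fibres (chr7:73442119-73484236, plus strand, hg19), and stood at 176 and 179 CPM in untreated libraries and at 228, 229 and 266 CPM at 72 h. The untreated libraries were close together and all treated ones lay above them. The change was 0.44 ± 0.08 (adjusted p = 0.0332), a call kept in 7 of the 14 fits that left out 1 library and lost with the replicate number as a block. Of 16 tested elastic fibre genes it was the only one called by edgeR, and 13 lay above 0 (median 0.12). DESeq2 called LOX as well (adjusted p = 0.0465). The cross-linking enzyme LOX stood at 0.20 ± 0.06 and the elastic fibre protein FBLN1 at 0.23 ± 0.06, both without overlap between groups and neither called by edgeR (adjusted p = 0.223 and 0.235). FBN1, fibrillin 1, the main microfibril protein, lay below 0 at -0.24 ± 0.14 with overlapping groups. MAMDC2, a secreted proteoglycan, was the least abundant of all genes called, with 11.2 and 10.9 CPM in untreated and 15.3, 17.4 and 18.0 CPM in treated libraries (log2 fold change 0.61 ± 0.12, adjusted p = 0.0332). Its call was kept in 7 of the 14 fits that left out 1 library, and lost in limma-voom, with only the compared groups and with the replicate block. Of 16 proteoglycans and matricellular genes it was the only one called by edgeR, and 11 lay above 0 (median 0.09).

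IGFBP3, a secreted binding protein of insulin-like growth factors (chr7:45951844-45960871, minus strand, hg19), stood at 483 and 438 CPM in untreated libraries and at 652, 590.3 and 711 CPM at 72 h. Its untreated libraries differed more than those of most called genes, but the treated ones were all higher. The change was 0.50 ± 0.09 (adjusted p = 0.0407), with a call kept in 4 of the 14 fits that left out 1 library. No collagen was called among 16 tested, of which 3 were higher at an unadjusted p under 0.05 and 13 lay above 0 (median 0.11). COL1A2, a chain of type I collagen, stood at 8871 and 8887 CPM against 9199, 9715 and 9934 CPM, higher without overlap but not called (0.12 ± 0.05, adjusted p = 0.680). Matrix proteases and their inhibitors had 0 calls of 12, with 4 lower at an unadjusted p under 0.05 and a median of -0.07. The collagenase MMP1 stood at 524 and 496 CPM in untreated and 331, 402 and 380.4 CPM in treated libraries, lower without overlap but not called (-0.46 ± 0.14, adjusted p = 0.394), and stromelysin MMP3 at -0.78 ± 0.23 (adjusted p = 0.265). Genes of TGF-beta, activin and BMP signalling, the pathways best known to drive myofibroblasts, had 0 calls of 20, with 3 higher and 1 lower at an unadjusted p under 0.05 and a median of -0.03. Their members ranged from -0.23 to 0.47, with 8 above 0 and 12 below. Of these, 4 were higher and 3 lower without overlap, against 12.0% and 12.2% of all genes. Of the members on the side of the median, SMAD7, an inhibitor that TGF-beta induces, stood at -0.20 ± 0.09 (adjusted p = 0.627). The TGF-beta receptor gene TGFBR2 stood at -0.12 ± 0.06 (adjusted p = 0.695).

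The remaining genes that rose were RDH10, EPAS1, ERRFI1, LBH and C1orf198. RDH10, the retinol dehydrogenase that makes retinaldehyde, the precursor of retinoic acid, stood at 31.6 and 31.6 CPM in the untreated libraries and at 47.7, 45.4 and 54.8 CPM at 72 h. The untreated values were nearly equal and the treated ones all far above them, a difference of 1.56-fold or 0.64 ± 0.09 (adjusted p = 0.00420). EPAS1, which encodes the oxygen-regulated transcription factor HIF-2 alpha, had 339.5 and 342 CPM against 420.0, 412 and 467 CPM (log2 fold change 0.35 ± 0.06, adjusted p = 0.0185). ERRFI1, an inhibitor of the epidermal growth factor receptor, had 126 and 120.4 CPM against 160.4, 151 and 172 CPM (0.39 ± 0.07, adjusted p = 0.0166). LBH, a transcription cofactor of limb and heart development, and C1orf198, a gene of little known function, changed by 0.36 ± 0.07 and 0.45 ± 0.08 (adjusted p = 0.0332 and 0.0166). None of these genes had overlapping groups.

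EPAS1 was the only gene called by edgeR among 22 tested hypoxia-response genes, and DESeq2 called LOX and STC1 as well. Of these 22, 16 were above 0 (median log2 fold change 0.10). CA9, a carbonic anhydrase often used as a marker of hypoxia, was near the limit of detection, at 1.56 and 1.50 CPM in untreated and 2.80, 1.88 and 2.86 CPM in treated libraries (0.71 ± 0.28, adjusted p = 0.573). STC1, the paralog of STC2 and a listed hypoxia gene, lay in the opposite direction at -0.39 ± 0.08 (adjusted p = 0.0597), with 122 and 121 CPM against 85.4, 96.7 and 96.9 CPM. Glycolysis and lactate genes had 0 calls of 25, with 4 higher and 2 lower at an unadjusted p under 0.05, 19 above 0 and a median of 0.08. The glucose transporter SLC2A1 stood at 0.18 ± 0.07 and PDK2, which restrains pyruvate entry to mitochondria, at 0.36 ± 0.09 (adjusted p = 0.513 and 0.154).

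The 5 genes that fell belong to different families. FAM111B, a protease of the nucleus linked to DNA replication and to an inherited fibrosing skin disease (chr11:58874658-58894888, plus strand, hg19), fell most. It stood at 35.2 and 34.6 CPM in the untreated libraries and at 23.2, 25.4 and 21.7 CPM at 72 h, with the groups apart, a change of -0.58 ± 0.09 (adjusted p = 0.0119). SSX2IP, a protein of centrosomes and cell junctions, had 67.5 and 64.4 CPM against 45.3, 50.3 and 47.5 CPM (-0.47 ± 0.08, adjusted p = 0.0166). HGF, the hepatocyte growth factor that fibroblasts secrete to act on epithelium (chr7:81328324-81399514, minus strand, hg19), had 75.2 and 73.9 CPM against 54.5, 63.4 and 53.3 CPM (-0.39 ± 0.07, adjusted p = 0.0245). In both, 72 h replicate 2 was the treated library nearest the untreated ones. H1F0, a linker histone of slowly dividing cells, fell from 121 and 116 CPM to 88.4, 88.4 and 97.3 CPM (-0.37 ± 0.07, adjusted p = 0.0166). DPYSL3, a cytoskeletal protein of growing cell processes, fell from 257 and 266 CPM to 211, 220.3 and 209.7 CPM (-0.29 ± 0.06, adjusted p = 0.0289).

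FAM111B was the only DNA replication gene called by edgeR. DESeq2, in which FAM111B, POLA1, E2F2 and CCNE2 had no adjusted p, called MCM2, MCM4, MCM6 and MCM7, all lower. Of 19 genes of the MCM helicase and origin licensing, edgeR called 0, 7 were lower at an unadjusted p under 0.05 and 16 lay below 0 (median log2 fold change -0.16). Over all 13371 genes tested, 436 were lower at that unadjusted level. In 10 the groups were lower without overlap, against 12.2% of all genes. MCM4, a subunit of the helicase, came nearest the threshold, at 181 and 189 CPM in untreated and 157, 153 and 153 CPM in treated libraries (-0.26 ± 0.06, adjusted p = 0.0597). MCM6 and MCM2 stood at -0.29 ± 0.07 and -0.32 ± 0.08 (adjusted p = 0.0771 and 0.131). Of 26 DNA polymerases and fork factors, among them FAM111B, 23 lay below 0 (median -0.13). POLA1, the catalytic subunit of the primase-bearing polymerase alpha, stood at 31.4 and 29.1 CPM against 22.6, 22.5 and 21.7 CPM (-0.44 ± 0.09, adjusted p = 0.0582), whereas the sliding clamp PCNA overlapped between groups at -0.03 ± 0.07, with a sign that changed in some alternative fits. E2F factors, cyclins and S-phase genes had 0 calls of 24, with 5 lower at an unadjusted p under 0.05 and a median of -0.03. Among them were E2F2 at -0.71 ± 0.19 (adjusted p = 0.170) and CCNE2 at -0.43 ± 0.11 (adjusted p = 0.166). G2/M and mitotic genes were close to their untreated levels, with 0 calls of 25, 0 at an unadjusted p under 0.05 and a median of -0.0076, whose sign was kept in 19 of 22 alternative fits. MKI67, a marker of cycling cells, overlapped between groups, at 385 and 450.4 CPM against 386, 384 and 280.0 CPM, with replicate 3 the lowest. Of 14 linker and variant histones, H1F0 was called and 12 lay below 0 (median -0.08).

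Nuclear genes that serve mitochondria had 0 calls at 72 h. Only 0.179% of all genes tested were called, so 0 calls does not set these genes apart from the rest. Of the 196 distinct genes tested in 6 lists, 1 was higher and 3 were lower at an unadjusted p under 0.05 in edgeR. Over all 13371 genes tested, 532 were higher and 436 lower at that level. DESeq2 and limma-voom also called 0, but DESeq2 gave no adjusted p for some members, among them NRF1, TFB2M and TWNK. The median log2 fold change was 0.03 for 36 complex I subunits, 0.01 for 39 subunits of complexes II to V, -0.0067 for 24 genes of mtDNA replication, transcription and the nucleoid, -0.0071 for 14 genes of mitochondrial nucleotide supply, -0.03 for 15 mitochondrial chaperones and proteases, and -0.02 for 69 mitochondrial ribosomal proteins. The sign was kept in every alternative fit for the mtDNA genes and the chaperones, and in 18 to 20 of 22 for the other 4 lists. TFAM, which packages mtDNA and starts its transcription, stood at 49.2 and 48.7 CPM in untreated and 45.2, 40.5 and 43.0 CPM in treated libraries, lower without overlap but not called (-0.19 ± 0.09, adjusted p = 0.682). POLG, the catalytic subunit of polymerase gamma, overlapped between groups at 54.9 and 61.8 and 63.8, 66.4 and 51.1 CPM (0.05 ± 0.13). TWNK, the mtDNA helicase, stood at -0.10 ± 0.10, and SSBP1, the mitochondrial single-strand DNA-binding protein, at 0.01 ± 0.08. The adjusted p of the last 3 genes was between 0.909 and 0.989.

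The other lists also had few or no called genes, as the plot of list members shows. With 0.179% of all genes tested called, 0 calls does not set a list apart. In every list with 0 calls in edgeR, DESeq2 and limma-voom called 0 as well, apart from the 4 MCM genes in DESeq2. Some members, such as ISG15 and AKR1C1, had no adjusted p in DESeq2 and were not judged by it. Interferon-stimulated genes had 0 calls of 26 tested, 3 higher and 1 lower at an unadjusted p under 0.05, 20 above 0 and a median of 0.09, with ISG15 at 12.5 and 13.7 CPM against 16.1, 15.2 and 17.9 CPM (0.33 ± 0.15, adjusted p = 0.672). Inflammatory secreted genes had HGF as their 1 call of 16, in the direction opposite to their median of 0.15, and IL6 stood at 2.69 and 3.17 CPM in untreated and 5.52, 4.18 and 4.42 CPM in treated libraries (0.68 ± 0.22, adjusted p = 0.323). Targets of the antioxidant regulator NRF2 had 0 calls of 22, 2 lower at an unadjusted p under 0.05 and a median of -0.06. Ribosome biogenesis genes had 0 of 30, 2 lower at an unadjusted p under 0.05 and a median of -0.07, with 25 below 0, among them the nucleolar protein NCL (-0.14 ± 0.05, adjusted p = 0.512). Cholesterol synthesis genes had 0 of 20, with a median of -0.07, and lysosome and autophagy genes 0 of 22, each with 1 lower at an unadjusted p under 0.05. The lysosome and autophagy median was 0.0073, whose sign was kept in 19 of 22 alternative fits.

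**Figure D3:**
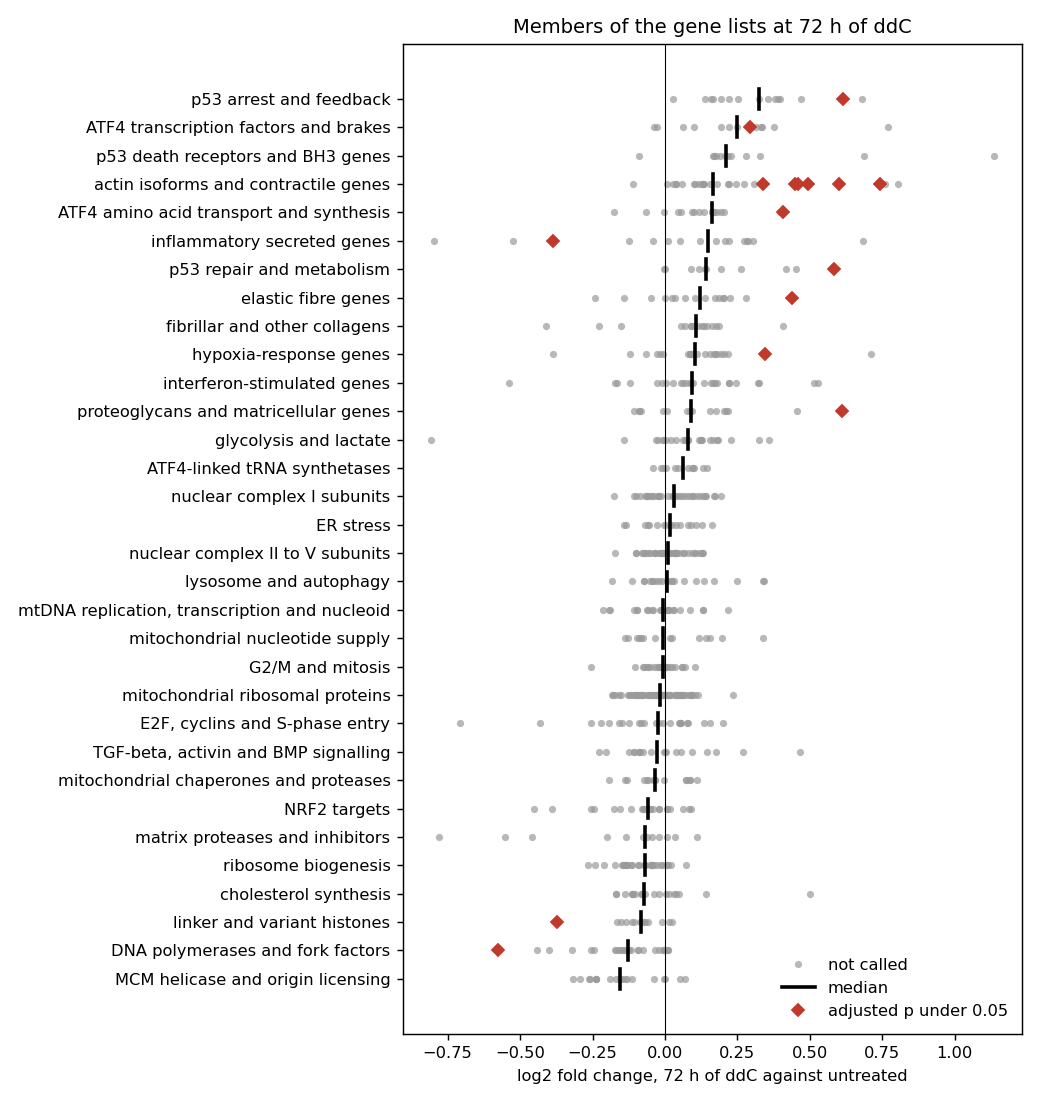
Fitted log2 fold change at 72 h against untreated cells (horizontal axis) of each tested member of the 32 gene lists (rows, ordered by median). Grey points are members not called, red diamonds called members and black bars list medians. The p53 arrest genes have the highest median, 0.33, and the MCM helicase genes the lowest, -0.16.

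The 72 h libraries were also compared with those of the neighbouring exposures. Against 48 h, edgeR called 8 genes, 0.0598% of those tested, and all were higher at 72 h, while 712 had an unadjusted p under 0.05. They were ACTA2, TAGLN, ELN and ERRFI1 of the 24, and CORIN, SULF1, ITGA1 and COL4A1. Leaving out 48 h replicate 1 or 72 h replicate 1 gave 1 call. All 24 genes had the same sign against 48 h as against untreated cells, among them ACTG2 at 0.31 ± 0.06 (adjusted p = 0.0710). ACTA2 had 491, 524 and 509 CPM at 48 h, just above its untreated values, so most of its rise lay between 48 and 72 h (log2 fold change 0.64 ± 0.07, adjusted p = 0.000146). ELN had 180.4, 183 and 168 CPM at 48 h, on both sides of its untreated values (0.44 ± 0.08, adjusted p = 0.0274). TAGLN rose from 1495, 1513 and 1410 CPM at 48 h (0.35 ± 0.06, adjusted p = 0.0274), and ERRFI1 from 122, 128 and 129 CPM (0.35 ± 0.06, adjusted p = 0.0274). In the contractile list 27 of 28 members lay above 0 against 48 h as well, against 48.9% of all genes, with a median of 0.18 and 2 called (5 by DESeq2). In 15 of the 28 the 72 h libraries stood above all 48 h ones, which held for 4.86% of all genes. For ACTA2, 48 h replicate 3, which shared the library set of the 72 h libraries, stood between the other 48 h libraries, and for TAGLN and ELN it was the lowest of the 3. As above, this placing rests on 1 library, was examined after the values had been seen, and its cause was not tested.

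No p53 target was called between 48 and 72 h by edgeR, DESeq2 or limma-voom, and 0 of the 38 had an unadjusted p under 0.05. CDKN1A had 678, 631 and 619.6 CPM at 48 h, overlapping its 72 h values (0.07 ± 0.07, adjusted p = 0.939). FDXR had 24.6, 24.6 and 18.4 CPM at 48 h, with replicate 3 the lowest (0.03 ± 0.10, adjusted p = 0.979), and BBC3 stood at -0.11 ± 0.12. The 15 arrest and feedback genes had a median of 0.03 between 48 and 72 h. At 24 h, CDKN1A already stood at 527, 602 and 634 CPM, above both untreated libraries. MAMDC2 was also as high at 48 h, with 16.5, 16.0 and 18.2 CPM. Whether the change of ACTA2 from 48 to 72 h was larger than that of CDKN1A was not tested.

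Some other lists had no call between 48 and 72 h in edgeR but lay mostly to one side. Others were split, with 14 interferon-stimulated genes above 0 and 12 below, and 11 E2F, cyclin and S-phase genes above and 13 below. Over all 13371 genes tested, 48.9% lay above 0, and 397 were higher and 315 lower at an unadjusted p under 0.05. All 19 ATF4-linked genes of amino acid transport and synthesis were above 0 (median 0.16), 10 of them at an unadjusted p under 0.05, and DESeq2 called PHGDH and PSAT1. Of the 13 ATF4-linked transcription factors and brakes, 12 were above 0 (median 0.20), 8 of them at an unadjusted p under 0.05, and DESeq2 called ATF4, DDIT4 and STC2. ATF4 had 245, 248 and 240.4 CPM at 48 h (0.20 ± 0.05, edgeR adjusted p = 0.242), all below its 72 h values. DDIT4, an inhibitor of mTORC1 signalling induced by stress, had 68.3, 68.5 and 63.4 CPM at 48 h and 74.2, 81.5 and 88.0 CPM at 72 h (0.28 ± 0.07, adjusted p = 0.242). Of the 196 nuclear genes that serve mitochondria, 146 were below 0 against 48 h, with 2 higher and 8 lower at an unadjusted p under 0.05 and 0 called by DESeq2 or limma-voom.

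**Figure D4:**
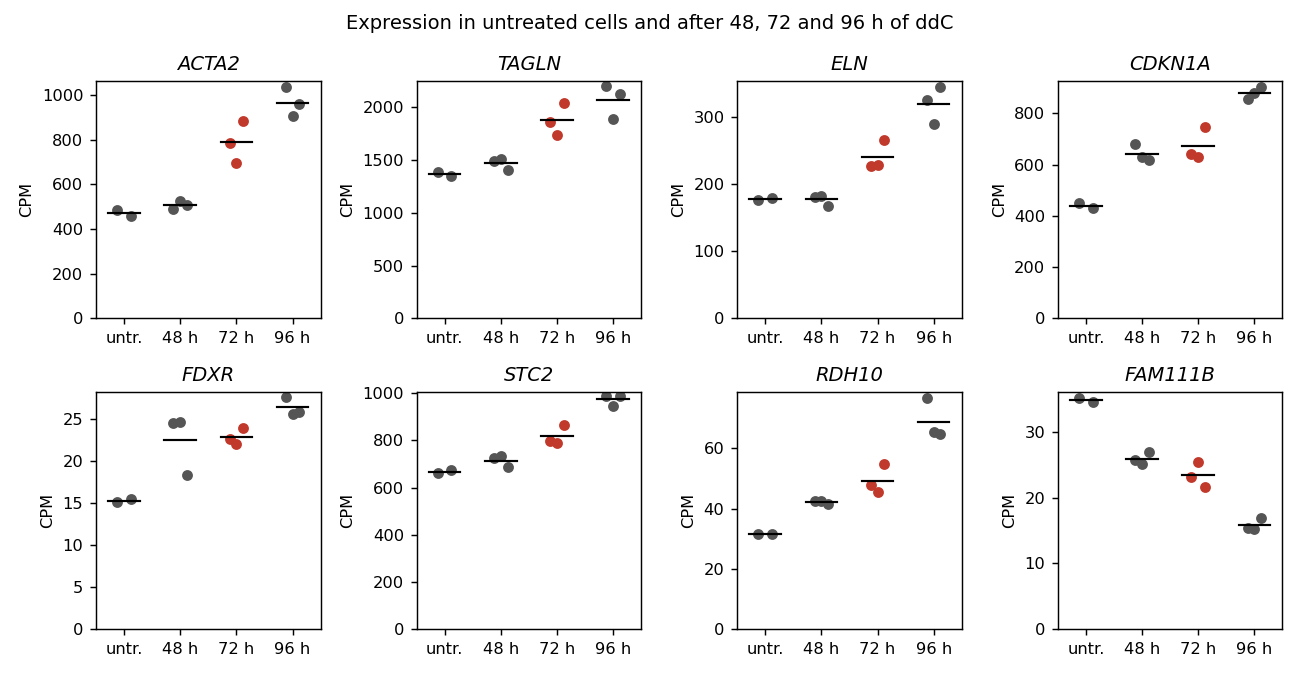
Expression in CPM (vertical axes, from 0) of 8 called genes in untreated cells and after 48, 72 and 96 h of ddC (horizontal axes). Points are libraries, with the 72 h libraries in red, and bars are group means. The 72 h values of ACTA2, TAGLN and ELN lie above those at 48 h, those of CDKN1A and FDXR overlap them, and RDH10 rises further and FAM111B falls further at 96 h.

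From 72 to 96 h, 69 genes were called, 61 higher (0.456%) and 8 lower (0.0598%), together 0.516% of those tested, with 1544 at an unadjusted p under 0.05. These 2 groups lie in the same library set. Of the 24 genes called at 72 h, 8 changed further in the same direction: CDKN1A, ELN, ERRFI1, STC2, LBH, EPAS1 and RDH10 upwards and FAM111B downwards. RDH10 rose to 76.6, 65.5 and 64.7 CPM at 96 h (log2 fold change 0.48 ± 0.08, adjusted p = 0.00601) and CDKN1A to 856, 878 and 903 CPM (0.38 ± 0.07, adjusted p = 0.0121). FAM111B fell to 15.4, 15.2 and 17.0 CPM (-0.56 ± 0.09, adjusted p = 0.00615). ACTA2, at 1035, 906 and 960.2 CPM, was not called against 72 h (0.29 ± 0.07, adjusted p = 0.0569), and 0 of the 28 contractile genes were in edgeR, with 6 higher and 2 lower at an unadjusted p under 0.05. Of these 28, 19 lay above 0, against 49.2% of all genes. H1F0 and LIMS2 stayed near their 72 h values, with -0.01 ± 0.06 and 0.02 ± 0.09. Lists with few or no calls against untreated cells at 72 h had calls between 72 and 96 h: 9 of 22 hypoxia-response genes and 3 of 25 glycolysis genes rose, and 4 of 19 MCM and licensing genes fell, among them MCM4 (-0.24 ± 0.05, adjusted p = 0.0298). GDF15, not called at 72 h, rose to 32.0, 42.6 and 42.3 CPM (0.61 ± 0.12, adjusted p = 0.0215). Leaving out 72 h replicate 1, 2 or 3 changed the number called between 72 and 96 h to 6, 5 or 243.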

How the data were processed

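The members and gene lists were chosen with earlier results of these data known. The submitters' processing notes name STAR 2.5.3a, HOMER and hg19. How the counting treated strand, multimapped reads and filters is not given in the sources used here. The authors deposited raw counts of 27142 genes in 14 columns (0 without a sample), each joined to its sample by title. VIM-AS1 had 0.155% of the counts of VIM on the other strand, so counts were read as strand-specific. From these, edgeR 4.0.16 in R 4.3.3 was run with TMM factors (0.971 to 1.02) and filterByExpr (minimum count 10, minimum total 15), as a robust quasi-likelihood model with a mean for each group over all 14 libraries. A called gene had a two-sided p under 0.05 after Benjamini-Hochberg adjustment. The SE is the fitted change over the root of F. P-values measure the spread between these libraries only. The 5 libraries compared held 11310760 to 12086869 counts, so depth differed little. A naming rule chose 116 genes (all called genes, the 3 members of each list that had the lowest p on the side of the list's median, and fixed genes), of which the text prints a part. Other genes were named after their values were seen, and 1 gene was left out of the 116 and is not reported here. Lists are described by counts and medians, with no test. The alternatives were median-ratio factors, DESeq2 1.42.0, limma-voom (limma 3.58.1), no filter, only the compared groups, a replicate block, a nuclear RNA score, the library set, and each library left out. The scripts were tested on simulated data. Promoters are RefSeq windows on GRCh38.p14 and were not joined to hg19 coordinates.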

Additional observations from a re-analysis of the deposited data

Results flagged for a closer look

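Of the 116 genes that the naming rule chose, 5 differed between 72 h and 48 h of ddC in a direct edgeR test, as log2 fold changes at adjusted p under 0.05. These were ACTA2 (0.64), ELN (0.44), TAGLN (0.35), ERRFI1 (0.35) and COL4A1 (0.34), all higher at 72 h. CORIN (0.52), SULF1 (0.37) and ITGA1 (0.37), described outside that rule, were higher too. COL4A1, a basement membrane collagen, was not called against untreated cells (0.16 ± 0.06, adjusted p = 0.556), while its values at 48 h, 2390, 2598 and 2503 CPM, were below the untreated ones of 2782 and 2888 CPM.

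Between 96 h and 72 h, 13 of the 116 differed by the same test. Higher at 96 h were COL11A1, a fibrillar collagen chain (0.89), GDF15 (0.61), RDH10 (0.48), ELN (0.41), ERRFI1 (0.39), CDKN1A (0.38), LBH (0.31), LOX (0.31), GABARAPL1, an autophagy gene (0.30), STC2 (0.25) and EPAS1 (0.25). Lower at 96 h were MCM4 (-0.24) and FAM111B (-0.56). Of the other genes described, DDIT4 (0.55) and SULF1 (0.53) were higher and MCM7 (-0.30) was lower. COL11A1 went from 17.6, 14.9 and 15.3 CPM at 72 h to 30.4, 30.3 and 27.8 CPM at 96 h, with no overlap. These times lie in 1 library set, whereas 72 h and 48 h do so only for 48 h replicate 3.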

How the results depend on the processing

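All 24 called genes kept their sign in each of the 22 alternative fits in which they had an adjusted p. DESeq2 gave no adjusted p for FDXR, MAMDC2 and FAM111B and called the other 21. The number called, 24, was 24 with median-ratio factors, 23 with limma-voom, 58 with DESeq2, 47 without a filter, 7 with only the compared groups, 243 with the nuclear RNA score and 0 when the library set was a term, which rests on 48 h replicate 3; it ranged from 1 to 35 when 1 library was left out. Against 48 h the number, 8, was 35 with DESeq2, 20 without a filter, 67 with the nuclear RNA score and 1 to 16 with 1 library left out. From 72 to 96 h the number, 69, was 125 with DESeq2, 117 without a filter, 252 with the nuclear RNA score and 5 to 243 with 1 library left out. The causes were not tested. With the replicate number as a block, 25 genes were called against untreated (22 shared), 15 against 48 h and 102 from 72 to 96 h. The deviations of same-numbered untreated and 72 h libraries had correlations of -0.287 and 0.292. Deviations of the untreated libraries from their own mean mirror each other, so these values cannot decide whether the numbers pair libraries. Whether they do is not known.

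Libraries that moved a count by over 1.5 times were, against untreated cells, both untreated libraries (2 without replicate 1, 1 without replicate 2) and 72 h replicates 1 (4) and 3 (6). Against 48 h they were 48 h replicates 1 (1), 2 (4) and 3 (3), 72 h replicates 1 (1) and 3 (3), 96 h replicate 3 (4) and 24 h replicate 3 (16). From 72 to 96 h they were 72 h replicates 1 (6), 2 (5) and 3 (243), 96 h replicates 1 (7), 2 (31) and 3 (21) and 24 h replicate 3 (118).

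Of the 92 genes that the naming rule chose and edgeR did not call, 5 turned sign. Over the fits that left out 1 library, SUCLA2 ranged from -0.25 to 0.00085, POLG from -0.036 to 0.16, SSBP1 from -0.028 to 0.038 and PCNA from -0.084 to 0.014. The sign turned without untreated replicate 1 for SUCLA2, POLG and PCNA, and without untreated replicate 2 or 72 h replicate 3 for SSBP1. It also turned without 72 h replicate 2 for POLG (-0.021) and PCNA (0.00061). SSBP1 stood at -0.017 without untreated replicate 2. POLG stood at -0.015 with the nuclear RNA score. SSBP1 stood at -0.013 with the replicate block and -0.046 with the library set. MCM5 stood at 0.027 and PCNA at 0.0088 with the library set.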

Other observations

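Genes just outside the threshold at 72 h, and those called only against 48 h, extended the description. PCDH18, a protocadherin of cell adhesion, stood at 157 and 147 CPM in untreated and 126, 129 and 118 CPM in treated libraries, lower without overlap (log2 fold change -0.29 ± 0.06, edgeR adjusted p = 0.0511). MEST, an imprinted gene of mesoderm, had 63.4 and 61.6 CPM against 88.6, 73.3 and 87.1 CPM (0.41 ± 0.09, adjusted p = 0.0511). CORIN, a membrane protease that processes natriuretic peptides, had 16.5 and 14.2 CPM in untreated, 14.9, 14.8 and 16.0 CPM at 48 h and 22.2, 20.6 and 22.9 CPM at 72 h. It missed the threshold against untreated cells (0.51 ± 0.11, adjusted p = 0.0511) and passed it against 48 h (0.52 ± 0.10, adjusted p = 0.0330).

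Among the genes called against 48 h were 2 that meet the matrix from the cell surface. ITGA1, a collagen-binding integrin chain, had 173, 189 and 194 CPM at 48 h and 238, 246 and 232 CPM at 72 h (0.37 ± 0.06, adjusted p = 0.0185). SULF1, an enzyme that edits heparan sulfate on the cell surface, had 78.6, 84.3 and 86.4 CPM at 48 h and 107, 106 and 110.2 CPM at 72 h (0.37 ± 0.07, adjusted p = 0.0274). Their untreated values, 200.5 and 199 CPM for ITGA1 and 92.7 and 83.7 CPM for SULF1, lay below the 72 h values without overlap, and neither was called against untreated cells (adjusted p = 0.132 and 0.154). These genes were chosen for description after their values were seen.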
